A study of Mus musculus with 8 samples.

Results

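Cryolesion, an injury made by freezing the cortical surface, was compared with control in the right fronto-parietal cortex of floxed mice. The 4 cryolesioned and 4 control floxed animals were chosen by the labels of the array channels, and they are 8 of the 16 animals measured. The other 8 animals lack microglia-derived Il6, 4 of them controls and 4 cryolesioned. Both floxed groups are the reference genotype of that deletion, and the labels name neither the floxed allele nor the Cre driver. The age of the mice, the interval between lesion and dissection, and any sham procedure in the controls are not given in the sources used here. The cortex of the lesioned side was dissected whole and frozen, so all values below are those of mixed tissue.

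A freeze lesion kills a column of cortex and breaks its vessels. Blood proteins enter, microglia and astrocytes become reactive, and chemokines draw neutrophils and monocytes from the blood. Cytokines of the interleukin-6 family act through the receptor subunit gp130 and the transcription factor STAT3, and STAT3 drives much of the reactive programme of astrocytes. Tumour necrosis factor and Toll-like receptors act in parallel through NF-kB.

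RNA was measured on 8 Agilent 2-colour arrays, each with 1 floxed and 1 Il6-deficient animal. No array paired a cryolesioned with a control floxed animal, so the comparison ran through the deficient groups. Controls 1 and 2 and cryolesioned animals 1 and 2 shared arrays with deficient controls, and controls 3 and 4 and cryolesioned animals 3 and 4 with deficient cryolesioned animals. The loop therefore holds 2 routes from floxed control to floxed cryolesioned cortex with different animals on each. Fitted changes are log2 differences, cryolesioned minus control, from limma over all 8 arrays with an intercept for the dye, and a change was called at a Benjamini-Hochberg adjusted p under 0.05. Levels of single animals are log2 channel intensities on a normalized scale, which compare animals for a given probe and not probes with each other. Per channel, the share of probes that rose well clear of background was 59.2% to 65.9%. Xist was detected in floxed controls 1, 3 and 4 and in 0 of the 4 cryolesioned animals, whereas Y-linked transcripts were detected in control 2 and all 4 cryolesioned animals. Sex thus differed between the groups, and the fit was also made with sex as a covariate and without X and Y genes.

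Of 29362 genes and unnamed probes tested, 896 (3.05%) were called, 546 of them higher (1.86%) and 350 lower (1.19%) after cryolesion. Their levels did not overlap between the groups for 500 of the 546 and 276 of the 350. Over all features tested, 7.33% had all 4 cryolesioned levels above all 4 controls and 7.49% had them all below. Among called genes the rises were larger than the falls. Genes near background have little room to fall, and the part of this limit was not tested. The median control level was 7.73 for genes called higher, 11.35 for those called lower and 7.85 over all features. Of the called genes 286 were at least 2-fold higher (0.974% of those tested) and 67 at least 2-fold lower (0.228%), while 64 were at least 4-fold higher and 0 at least 4-fold lower. The median change was 1.03 among the genes called higher and -0.75 among those called lower, against -0.01 over all features. The number of calls depended on single arrays. It was 60 without the array of control 1, 2140 without control 2, 168 without control 4, 173 without cryolesioned animal 1, 405 without cryolesioned animal 2 and 57 without cryolesioned animal 4. Only 49 genes were called in each of the 8 fits that left out 1 array. For genes named below, the largest adjusted p over these 8 fits is given where it matters. With the scanner software's processed signals 405 genes were called and 86.9% of them were higher. A fit of the separate channels called 4766 with 48.3% higher, where the main split was 60.9%. With sex as a covariate 800 features were called, 602 of them among the 896, and without genes on the X and Y chromosomes 878, of which 875 were among the 896. The sex covariate ended the calls of these genes described below: Clec4d, Sucnr1, Mmp14, Cspg5, Cntf, Nfkbia, Nfkb2, Myd88, Cstb, Camk4, Begain, Nr2f1, Map2, Gpr17, Gbp3, Manf and Wfdc17. Their adjusted p with it lay between 0.0513 (Nfkbia) and 0.0868 (Begain), and each kept its direction. Beside the median change of a gene list, the range in brackets is that over all other settings of the fit, the 8 fits without 1 array, the sex covariate and the separate routes.

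Il6 itself lay near the detection limit. Its brighter probe read 5.86, 5.93, 6.003 and 5.89 in controls 1 to 4 and 6.40, 6.83, 6.20 and 6.57 in cryolesioned animals 1 to 4. It was well above background in 0 of 4 controls and in 3 of 4 cryolesioned animals, animal 3 being the exception. The levels did not overlap, and the exact two-sided permutation test gave p = 0.0286, the smallest that 70 splits of 4 against 4 allow.

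**Figure D1:**
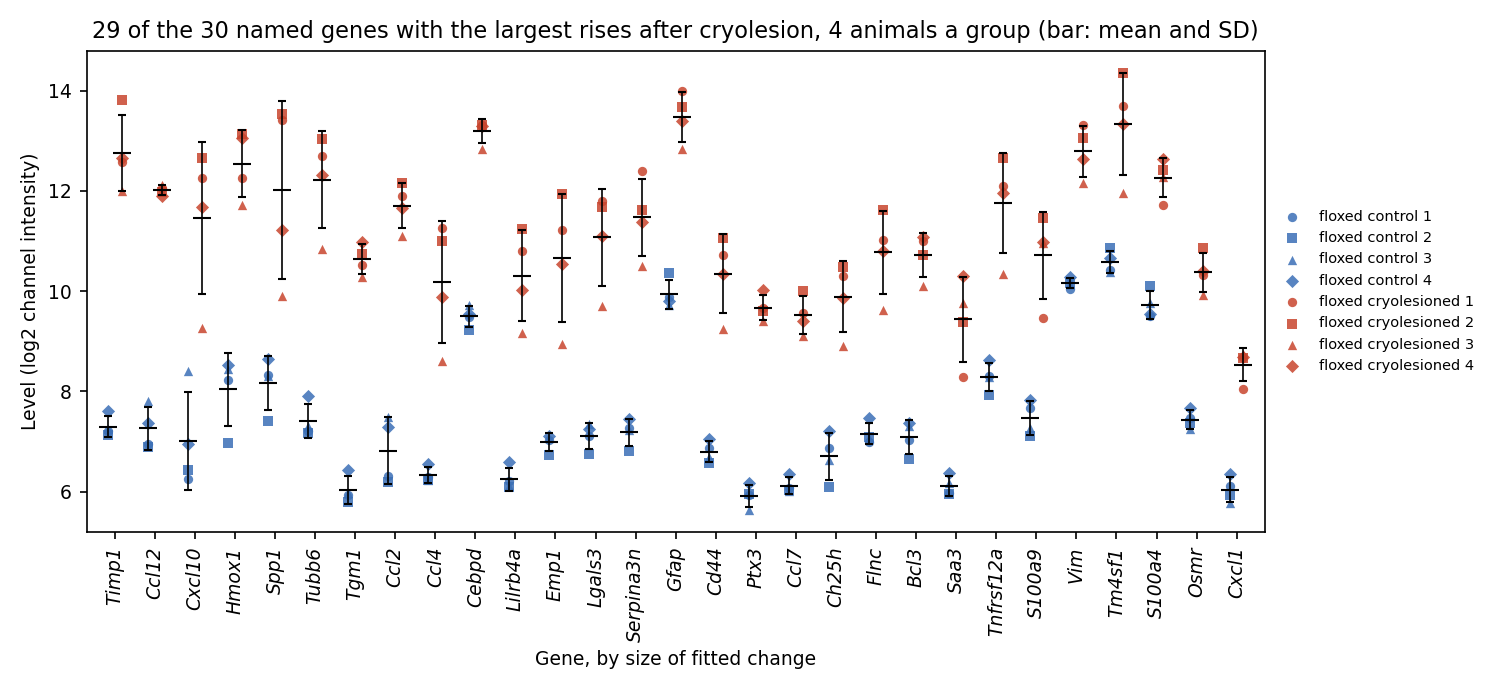
Levels of 29 of the 30 named genes with the largest rises whose groups did not overlap. The vertical axis is log2 channel intensity; blue symbols are the 4 floxed controls and red symbols the 4 floxed cryolesioned animals, with a bar at the mean and whiskers of 1 SD. For most genes the red triangle, cryolesioned animal 3, is the lowest of its group.

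The sequences 250 bases upstream of the start of 6 of these genes, which differ in their order of lesioned animals, are shown. These sequences were picked because they hold the binding motif of a factor that the lesion pathways use. They are from RefSeq (build GRCm38.p6), 5′ to 3′ on the gene's strand, with the letters of a motif, read on either strand, in capitals. The Cxcl10 stretch lies at chr5:92348890-92349139 (minus strand), with an NF-kB motif 159 and an AP-1 motif 74 bases before the start (counted to the first base of the motif). The Cxcl1 stretch lies at chr5:90890995-90891244 (plus strand), and its capitals are 1 NF-kB motif that reads on both strands. The Tgm1 stretch lies at chr14:55713493-55713742 (minus strand) and holds STAT motifs 173 and 64 bases before the start. The Emp1 stretch lies at chr6:135362681-135362930 (plus strand), with STAT motifs at 120 and 22 bases and AP-1 motifs at 145 and 25 bases, the nearest pair overlapping. RefSeq gives 2 starts each for Tgm1 and Emp1, and the stretches before the starts not shown (chr14:55713089-55713338 and chr6:135367243-135367492) hold none of the motifs. The Saa3 stretch at chr7:46715677-46715926 (minus strand) and the Ptx3 stretch at chr3:66219637-66219886 (plus strand) each hold a C/EBP motif, 99 and 57 bases before the start.
Cxcl10: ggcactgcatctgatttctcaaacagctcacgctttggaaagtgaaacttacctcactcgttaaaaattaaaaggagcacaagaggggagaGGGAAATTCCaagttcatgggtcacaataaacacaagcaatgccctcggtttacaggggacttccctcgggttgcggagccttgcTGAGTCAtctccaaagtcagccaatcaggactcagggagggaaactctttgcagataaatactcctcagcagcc
Cxcl1: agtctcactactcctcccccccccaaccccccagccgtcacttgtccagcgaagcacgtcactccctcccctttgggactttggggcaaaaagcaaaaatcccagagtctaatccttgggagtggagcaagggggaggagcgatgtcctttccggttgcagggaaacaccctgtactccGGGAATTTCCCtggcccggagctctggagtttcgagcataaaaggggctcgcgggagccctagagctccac
Tgm1: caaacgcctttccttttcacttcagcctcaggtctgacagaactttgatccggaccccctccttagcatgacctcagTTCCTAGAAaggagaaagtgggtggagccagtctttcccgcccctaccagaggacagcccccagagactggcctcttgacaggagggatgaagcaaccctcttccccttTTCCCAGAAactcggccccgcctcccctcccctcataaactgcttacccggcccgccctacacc
Emp1: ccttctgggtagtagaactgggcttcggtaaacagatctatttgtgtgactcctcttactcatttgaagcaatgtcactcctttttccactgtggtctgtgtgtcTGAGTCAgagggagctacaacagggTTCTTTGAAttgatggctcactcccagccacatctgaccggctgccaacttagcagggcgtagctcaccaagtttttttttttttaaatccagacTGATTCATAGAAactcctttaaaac
Saa3: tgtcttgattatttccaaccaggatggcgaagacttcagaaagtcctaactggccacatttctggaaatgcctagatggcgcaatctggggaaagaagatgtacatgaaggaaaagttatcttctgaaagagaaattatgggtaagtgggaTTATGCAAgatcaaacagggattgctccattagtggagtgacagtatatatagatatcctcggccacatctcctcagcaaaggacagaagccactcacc
Ptx3: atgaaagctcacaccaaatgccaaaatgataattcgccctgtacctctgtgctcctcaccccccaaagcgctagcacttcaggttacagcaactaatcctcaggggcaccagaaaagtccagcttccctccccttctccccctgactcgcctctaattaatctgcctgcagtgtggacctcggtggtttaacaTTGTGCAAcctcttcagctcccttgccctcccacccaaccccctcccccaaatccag

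Monocyte-attracting chemokines rose, with levels in all 4 lesioned animals above all controls. Ccl2, the main ligand of the monocyte receptor Ccr2, read 6.31, 6.19, 7.49 and 7.29 in controls 1 to 4 and 11.90, 12.16, 11.10 and 11.65 in cryolesioned animals 1 to 4, a fitted change of 3.96 ± 0.12 (SE, adjusted p = 0.000214). Ccl12, a further Ccr2 ligand of the mouse, read 6.96, 6.90, 7.82 and 7.38 in controls and 12.06, 11.98, 12.12 and 11.90 after cryolesion, where the 4 animals differed by only 0.22. Its change was 4.42 ± 0.16 (SE, adjusted p = 0.000268). Ccl7 rose by 3.34 ± 0.11 (SE, adjusted p = 0.000214), from 6.08, 6.04, 6.01 and 6.36 to 9.57, 10.01, 9.10 and 9.40. All 3 held their calls without any 1 array, with a largest adjusted p of 0.00424, 0.00556 and 0.00464. These genes are close paralogs, and cross-hybridisation between their probes was not tested.

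The interferon-inducible chemokine Cxcl10 and the macrophage chemokine Ccl4 varied far more between lesioned animals. Cxcl10, a ligand of Cxcr3, read 6.26, 6.44, 8.40 and 6.95 in controls and 12.25, 12.65, 9.27 and 11.68 in cryolesioned animals. The lowest cryolesioned animal, number 3, was less than 1 above the highest control, number 3. Its change of 4.18 ± 0.77 (SE, adjusted p = 0.0415) lost its call without each of 4 arrays, giving an adjusted p of 0.159 without the array of control 1, and was 5.76 on the first route and 2.59 on the second. Ccl4 read 6.30, 6.23, 6.22 and 6.56 in controls and 11.27, 11, 8.61 and 9.88 after cryolesion, with a change of 3.82 ± 0.37 (SE, adjusted p = 0.00716) and an adjusted p of 0.0533 without the array of control 1. Cxcl12, which keeps leukocytes and progenitors in place through Cxcr4, went the other way. It read 11.40, 11.60, 11.53 and 11.56 in controls and 10.03, 10.07, 9.79 and 9.64 in cryolesioned animals, a change of -1.57 ± 0.13 (SE, adjusted p = 0.00465) that held without any 1 array (0.0381 at most).

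Some neutrophil-attracting, neutrophil and acute-phase genes rose with a different order of animals. Cxcl1, a ligand of the neutrophil receptor Cxcr2, read 6.11, 5.93, 5.77 and 6.36 in controls, where it was not above background, and 8.04, 8.67, 8.75 and 8.68 in cryolesioned animals 1 to 4, a change of 2.67 ± 0.24 (SE, adjusted p = 0.00598). Saa3, an acute-phase apolipoprotein, read 5.97, 5.94, 6.16 and 6.38 in controls and 8.29, 9.38, 9.77 and 10.30 in cryolesioned animals. Lcn2, the siderophore-binding protein lipocalin 2, read 6.97, 6.59, 8.22 and 8.15 in controls and 11.41, 12.08, 12.59 and 12.72 after cryolesion. S100a8 and S100a9 encode the subunits of calprotectin, an abundant neutrophil protein. S100a8 read 8.44, 10.12, 9.51 and 9.57 in cryolesioned animals against 6.73, 6.30, 6.28 and 6.70 in controls, and S100a9 9.46, 11.46, 10.95 and 10.98 against 7.66, 7.11, 7.27 and 7.83. In all 5 genes animal 1 was the lowest lesioned animal, as it was for Hp and Cp. For Serpina3n and Ptx3 animal 3 was the lowest. The fitted changes were 3.08 ± 0.24 (SE, adjusted p = 0.00371) for Saa3, 2.57 ± 0.11 (SE, adjusted p = 0.000398) for Lcn2, 2.60 ± 0.36 (SE, adjusted p = 0.0188) for S100a8 and 2.79 ± 0.32 (SE, adjusted p = 0.0112) for S100a9. Saa3 and Lcn2 held their calls without any 1 array. Cxcl1 gave an adjusted p of 0.0527 without the array of control 1, S100a8 an adjusted p of 0.101 without the array of cryolesioned animal 4 and S100a9 an adjusted p of 0.062 without the array of control 1.

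Some genes were detected only after the lesion. A total of 14 called features were below the detection limit (not well above background) in all 4 controls and detected in all 4 cryolesioned animals, and 10 of these are named genes. The reverse pattern was found for 0 called features, while over all features tested 49 (0.167%) went from absent to present and 62 (0.211%) from present to absent by detection alone. Ptx3, a secreted pattern-recognition pentraxin, read 9.67, 9.61, 9.40 and 10.02 after cryolesion, at least 12.8-fold higher than in controls by the level means, and its fitted change was 3.36 ± 0.21 (SE, adjusted p = 0.00196). Each bound sets the lesioned mean level against a control mean in which every array counts with the detection floor or with the probe's own reading, whichever is higher. Cxcl1 was at least 5.5-fold higher, and Mmp3, the matrix protease stromelysin 1, at least 5.29-fold, with a fitted change of 2.40 ± 0.31 (SE, adjusted p = 0.0156). The phagocyte receptors Clec4d and Msr1 were at least 4.02-fold and 3.45-fold higher, and the metabolite receptors Hcar2 and Sucnr1 at least 2.31-fold and 1.39-fold. Serpina3j, Sprr1a and Soat2 had bounds of 2.14-fold, 1.8-fold and 1.66-fold. Sprr1a is a marker of injured, regenerating neurons. The fitted changes were 2.01 for Clec4d, 1.68 for Msr1, 1.14 for Hcar2, 0.51 for Sucnr1, 0.99 for Serpina3j, 0.76 for Sprr1a and 0.59 for Soat2. As folds these were smaller than the bounds from the level means for Ptx3, Mmp3, Msr1, Hcar2, Serpina3j, Sprr1a and Soat2. Only Ptx3 of the 10 kept its call without any 1 array. Cxcl1 lost it without control 1 alone. The largest adjusted p over the 8 fits was 0.094 for Mmp3, 0.14 for Clec4d, 0.089 for Msr1, 0.124 for Hcar2, 0.133 for Serpina3j, 0.148 for Sprr1a and 0.127 for Soat2. Sucnr1 lost its call in 7 of the 8 fits (an adjusted p of 0.14 without the array of control 1).

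Genes that close wounds and control clotting had the highest median of the 49 lists. Of 20 tested haemostasis and plasminogen genes 7 rose and 0 fell, with a median change of 1.36 (range 0.84 to 1.76). Tgm1, a transglutaminase that crosslinks proteins, read 5.94, 5.80, 5.97 and 6.42 in controls and 10.52, 10.73, 10.29 and 10.99 in cryolesioned animals, a rise of 4.005 ± 0.17 (SE, adjusted p = 0.000398). Pdpn, which activates platelets through Clec2, read 10.04, 10.15, 10.01 and 10.11 in controls and 12.03, 12.13, 11.74 and 12.01 after cryolesion and rose by 2.07 ± 0.12 (SE, adjusted p = 0.00196). Anxa2, which binds plasminogen at the cell surface, rose by 2.16 ± 0.28 (SE, adjusted p = 0.0165), with an adjusted p of 0.0996 without the array of cryolesioned animal 4. Serpinf2, the plasmin inhibitor alpha-2-antiplasmin, rose by 1.72 ± 0.19 (SE, adjusted p = 0.0112), with an adjusted p of 0.0742 without the array of cryolesioned animal 4. Members that were not called included Serpine2 (-0.47), the tissue factor gene F3 (0.29) and Vwf (0.59).

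A minority of the wound matrix genes rose, 4 of 17 tested proteases and inhibitors and 6 of 20 provisional matrix and matricellular genes, and 0 fell. Timp1, an inhibitor of matrix metalloproteases and target of STAT3, had the largest named change of the comparison. It read 7.21, 7.12, 7.26 and 7.60 in controls and 12.57, 13.81, 11.995 and 12.66 in cryolesioned animals, a change of 4.88 ± 0.26 (SE, adjusted p = 0.00155). Timp2, Timp3 and Timp4 were not called (-0.37, -0.31 and -0.37). The proteases that rose included Adamts1 (2.36, adjusted p = 0.0257) and Mmp14 (0.42, adjusted p = 0.0451), and 6 of the 17 changes were negative. The median was 0.33 (range 0.11 to 0.63) for proteases and inhibitors and 0.54 (range 0.23 to 0.93) for matricellular genes. Spp1 encodes osteopontin, a matrix ligand of integrins and Cd44. It read 8.33, 7.40, 8.30 and 8.64 in controls and 13.41, 13.54, 9.90 and 11.23 after cryolesion, with a change of 4.12 ± 0.70 (SE, adjusted p = 0.0321). Cd44, its receptor, read 6.87, 6.58, 6.68 and 7.05 in controls against 10.73, 11.07, 9.25 and 10.35 after cryolesion and rose by 3.49 ± 0.30 (SE, adjusted p = 0.00465). Emp1, an epithelial membrane protein, rose by 3.58 ± 0.55 (SE, adjusted p = 0.0245), Tgfbi by 2.66 ± 0.30 (SE, adjusted p = 0.0114) and Ccn1 by 1.94 ± 0.32 (SE, adjusted p = 0.0299). Spp1 was called in 3 of the 8 fits without 1 array (an adjusted p of 0.146 without the array of cryolesioned animal 4), Ccn1 in 2 (an adjusted p of 0.132 without the array of cryolesioned animal 4), Emp1 in 4 (an adjusted p of 0.129 without the array of cryolesioned animal 4) and Adamts1 in 4 (an adjusted p of 0.135 without the array of cryolesioned animal 4). Tgfbi gave an adjusted p of 0.0802 without the array of cryolesioned animal 4 and Mmp14 an adjusted p of 0.182 without the array of cryolesioned animal 4.

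Of 18 tested genes listed for brain proteoglycans and the matrix that surrounds neurons, 2 were higher and 2 lower. Bcan, the brain-specific lectican brevican, read 14.48, 14.41, 14.52 and 14.57 in controls and 13.06, 12.93, 13.57 and 13.41 in cryolesioned animals, a change of -1.50 ± 0.17 (SE, adjusted p = 0.011). Cspg5 fell too (-1.01 ± 0.18 SE, adjusted p = 0.0372). The hyaluronan synthase Has2 rose by 0.94 ± 0.16 (SE, adjusted p = 0.0341) and the syndecan Sdc4 by 1.56 ± 0.22 (SE, adjusted p = 0.0183). Ncan and Ptprz1 were not called (-0.39 and -0.28). Largest adjusted p values without 1 array were 0.0674 for Bcan, 0.17 for Cspg5, 0.164 for Has2 and 0.108 for Sdc4, Bcan without control 1 and the others without cryolesioned animal 4.

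The actin cytoskeleton gave the largest number of calls of any list. Of 29 tested genes 13 rose and 0 fell, with a median of 0.69 (range 0.51 to 0.91). Flnc, the actin crosslinker filamin C, read 7.001, 7.09, 7.07 and 7.47 in controls and 11.02, 11.62, 9.63 and 10.81 after cryolesion and rose by 3.15 ± 0.32 (SE, adjusted p = 0.00777). Tagln, the smooth-muscle actin-binding protein transgelin, read 9.09, 9.74, 9.10 and 9.29 in controls against 11.76, 11.69, 11.71 and 11.95 after cryolesion and rose by 2.44 ± 0.24 (SE, adjusted p = 0.00731), with lesioned animals within 0.26 of each other. Msn, which links actin to the membrane, and Tagln2 rose by 2.23 ± 0.30 (SE, adjusted p = 0.0173) and 2.09 ± 0.29 (SE, adjusted p = 0.019). Cnn2, Cnn3, Flna, Tpm4, Lcp1, Capg, Arpc1b and Pdlim4 were the other actin genes called. Actb and Actg1, which encode the cytoplasmic actins themselves, had changes of 0.07 and 0.07 and were not called. Vim, an intermediate filament gene of reactive glia counted in this list, read 10.05, 10.16, 10.15 and 10.28 in controls and 13.31, 13.06, 12.16 and 12.63 in cryolesioned animals, a rise of 2.77 ± 0.21 (SE, adjusted p = 0.00371). Flnc and Tagln lost their calls without control 1 or cryolesioned animal 4 (up to 0.0619 and 0.0575), and Msn and Tagln2 in 4 of the 8 fits (up to 0.101 and 0.112, without cryolesioned animal 4).

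Tubulin and stathmin genes gave 2 rises, both of tubulins, and 1 fall, of a stathmin. Tubb6, a minor beta-tubulin isotype, read 7.21, 7.18, 7.32 and 7.91 in controls and 12.69, 13.03, 10.85 and 12.32 after cryolesion, among the largest rises of the comparison (4.09 ± 0.32 SE, adjusted p = 0.00408). Among 19 tubulins and stathmins the median change was -0.25 (range -0.47 to -0.01), and the alpha-tubulin genes Tuba1a and Tuba1b were not called (-0.25 and -0.35). Tubb2b rose by 0.59 ± 0.11 (SE, adjusted p = 0.0358), with an adjusted p of 0.139 without the array of control 1. Stmn1, a microtubule-destabilizing protein, read 15.70, 15.27, 15.91 and 15.96 in controls against 14.67, 14.32, 15.26 and 14.85 after cryolesion and fell (-1.14 ± 0.17 SE, adjusted p = 0.0234), with an adjusted p of 0.128 without the array of cryolesioned animal 4. In this list 15 changes were negative and 4 positive.

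Annexins and S100 proteins, which bind calcium and membranes, rose in 7 of 19 cases and fell in 0, with a median of 0.91 (range 0.68 to 1.06). S100a4 rose by 2.71 ± 0.29 (SE, adjusted p = 0.0095) and S100a6 by 1.63 ± 0.17 (SE, adjusted p = 0.00991). Their values without cryolesioned animal 4 were adjusted p = 0.0714 and 0.0735. S100b and Anxa5 were not called (-0.43 and 0.43). S100b is the family member that resting astrocytes express.

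Gfap and Serpina3n, astrocyte genes taken from the 30 largest rises and not from a list, were higher, and 2 of 20 listed transporters and homeostatic astrocyte genes fell. Gfap, the intermediate filament of reactive astrocytes, read 9.88, 10.36, 9.72 and 9.80 in controls and 13.998, 13.68, 12.83 and 13.38 in cryolesioned animals, a rise of 3.50 ± 0.26 (SE, adjusted p = 0.00353). Serpina3n, a secreted protease inhibitor of the same state, read 7.26, 6.81, 7.22 and 7.46 in controls against 12.39, 11.61, 10.51 and 11.38 after cryolesion and rose by 3.52 ± 0.29 (SE, adjusted p = 0.00424). Both held without any 1 array. In the list of 20 genes 0 rose, with a median of -0.47 (range -0.63 to -0.43) and 17 negative changes. Glul, glutamine synthetase, read 15.01, 15.11, 15.07 and 15.25 in controls and 14.24, 14.04, 14.56 and 14.43 after cryolesion and fell (-1.04 ± 0.14 SE, adjusted p = 0.0167), as did the glycolytic enzyme Aldoc (-1.06 ± 0.10 SE, adjusted p = 0.0056), from 16.30, 16.47, 16.86 and 16.60 to 15.91, 15.31, 15.96 and 16.14. The glutamate transporter Slc1a2 was not called (-0.46). Without cryolesioned animal 4 the adjusted p was 0.101 for Glul and 0.0538 for Aldoc. In bulk tissue, fewer cells of a type and less RNA per cell cannot be told apart.

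Of 25 tested genes of the interleukin-6 family 5 rose and 0 fell. They are a receptor, a transducer, 2 feedback genes and a ligand, and the list had a median of 0.45 (range 0.23 to 0.69). Osmr, the oncostatin M receptor, read 7.47, 7.37, 7.25 and 7.68 in controls and 10.33, 10.85, 9.92 and 10.41 in cryolesioned animals and rose by 2.69 ± 0.21 (SE, adjusted p = 0.00371). Stat3 read 10.39, 10.48, 10.57 and 10.45 in controls against 12.21, 12.65, 11.64 and 12.10 after cryolesion, a rise of 1.38 ± 0.20 (SE, adjusted p = 0.0213). Socs3, the STAT3 target that shuts gp130 signalling off, read 8.29, 8.35, 8.82 and 9.15 in controls against 11.94, 12.43, 10.97 and 12.02 after cryolesion. Its fitted change was 1.85 ± 0.25 (SE, adjusted p = 0.018) where the difference of the group means was 3.19. Cntf (0.62 ± 0.12 SE, adjusted p = 0.042) is the only ligand among the 5, and Cish (0.62 ± 0.10 SE, adjusted p = 0.0306) a further feedback inhibitor whose levels overlapped between the groups. Osmr held without any 1 array. Stat3 and Socs3 held in 4 of the 8 fits (up to 0.112 and 0.0982), Cish in 2 and Cntf in 1 (up to 0.154 and 0.194), each without cryolesioned animal 4.

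Transcription factors of the acute response rose in part. Cebpd, an early target of STAT3, read 9.49, 9.23, 9.72 and 9.55 in controls and 13.31, 13.32, 12.84 and 13.30 after cryolesion, a rise of 3.79 ± 0.24 (SE, adjusted p = 0.00223) that held without any 1 array. Among 28 AP-1, C/EBP and early response factors 4 rose and 0 fell, with a median of 0.78 (range 0.51 to 1.16). Atf3, which marks injured neurons, rose by 1.90 ± 0.35 (SE, adjusted p = 0.0402) and Maff by 1.99 ± 0.35 (SE, adjusted p = 0.0357). Fos was called (1.997 ± 0.39 SE, adjusted p = 0.0468), but its levels overlapped, at 10.63, 10.01, 9.15 and 9.43 in controls and 11.06, 11.55, 10.61 and 11.08 in cryolesioned animals. Egr1 and Jund were not called (-0.06 and -0.47). Of 16 NF-kB genes 4 rose and 0 fell, the precursor subunit Nfkb2 and 3 genes of the IkB family. Bcl3 read 7.04, 6.64, 7.32 and 7.37 in controls against 10.997, 10.71, 10.11 and 11.07 after cryolesion and rose by 3.1 ± 0.36 (SE, adjusted p = 0.0118), while Nfkbia, Nfkbiz and Nfkb2 rose by 1.08, 1.03 and 0.84 (adjusted p = 0.0378, 0.0158 and 0.0435). The subunit gene Rela was not called (0.35). Calls in this group were lost without single arrays for Atf3, Maff, Fos, Bcl3, Nfkbia, Nfkbiz and Nfkb2, with adjusted p up to 0.181, 0.157, 0.201, 0.0774, 0.148, 0.089 and 0.191 in that order, Nfkbia without control 1 and the others without cryolesioned animal 4.

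A minority of TNF-family genes changed. Of 20 tested ligands and receptors 5 rose and 1 fell. Receptors make up 4 of the 5, and their share among the 20 was not counted. Tnfrsf12a, the receptor of TWEAK, rose by 2.94 ± 0.49 (SE, adjusted p = 0.0299), Tnfrsf1a by 1.89 ± 0.26 (SE, adjusted p = 0.0173), the death receptor Fas by 1.40 ± 0.12 (SE, adjusted p = 0.00465) and Ltbr by 1.28 ± 0.11 (SE, adjusted p = 0.00465). The ligand Tnfsf9 rose by 0.86 ± 0.16 (SE, adjusted p = 0.0415), and Tnfsf10 was the gene that fell. Fas and Ltbr held without any 1 array. Tnfrsf12a was called in 3 of the 8 fits (up to 0.15), Tnfrsf1a in 4 (0.103) and Tnfsf9 in 2 (0.178), each highest without cryolesioned animal 4.

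Phagocyte receptors gave one of the larger shares of rises. Of 19 Fc receptor and Tyrobp-Trem2 genes 8 rose and 0 fell, with a median of 0.72 (range 0.50 to 1.37). Lilrb4a, an inhibitory myeloid receptor, read 6.20, 6.09, 6.12 and 6.59 in controls and 10.81, 11.23, 9.18 and 10.02 in cryolesioned animals, a rise of 3.63 ± 0.29 (SE, adjusted p = 0.00424). Fcgr4, an activating IgG receptor, read 6.23, 6.15, 6.43 and 6.66 in controls against 8.25, 8.34, 8.15 and 8.61 after cryolesion and rose by 1.68 ± 0.12 (SE, adjusted p = 0.00341), and Fcgr2b, the inhibitory one, by 1.63 ± 0.13 (SE, adjusted p = 0.00434). Those 3 held without any 1 array. The common signalling chain Fcer1g rose by 1.32 ± 0.21 (SE, adjusted p = 0.0275) and the endosomal marker Cd68 by 1.39 ± 0.19 (SE, adjusted p = 0.0174), with an adjusted p of 0.146 without the array of cryolesioned animal 4 and an adjusted p of 0.104 without the array of cryolesioned animal 4 in that order. Trem2 stayed uncalled at 0.02, with levels of 10.98, 11.65, 11.29 and 11.22 in controls and 11.32, 11.59, 10.91 and 11.22 after cryolesion, which overlap. Of 24 pattern recognition genes 7 rose and 0 fell, led by the lipopolysaccharide co-receptor Cd14, which read 7.57, 7.73, 7.68 and 7.56 in controls against 11, 11.45, 9.12 and 10.84 after cryolesion (2.63 ± 0.27 SE, adjusted p = 0.00775), and by Tlr2 (1.95 ± 0.15 SE, adjusted p = 0.00371). The adaptor Myd88 rose by 1.42 ± 0.26 (SE, adjusted p = 0.0396), and Ly96, Tlr9 and Irak1 were not called (-0.39, 0.05 and 0.07). Without cryolesioned animal 4 the adjusted p was 0.0636 for Cd14 and 0.18 for Myd88.

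Lysosomal genes divided. Of 23 tested, 7 rose and 2 fell. Ctsc, the protease that activates granule serine proteases, read 7.37, 7.31, 7.04 and 7.65 in controls and 9.54, 9.32, 9.36 and 9.42 after cryolesion and rose by 1.95 ± 0.18 (SE, adjusted p = 0.00631). The cystatins Cst7 and Cstb rose by 1.54 ± 0.15 (SE, adjusted p = 0.00722) and 0.92 ± 0.17 (SE, adjusted p = 0.0418), while Cst3, the secreted cystatin C, fell (-0.84 ± 0.12 SE, adjusted p = 0.0183). The cathepsins Ctsb and Ctsd were not called (0.11 and 0.23). Each of these 4 calls was lost without cryolesioned animal 4, at 0.0552 for Ctsc, 0.0506 for Cst7, 0.186 for Cstb and 0.101 for Cst3.

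Of 20 tested genes of heme and iron handling 4 rose and 1 fell, with a median of 0.25 (range 0.22 to 0.42) and 7 negative changes. Hmox1, heme oxygenase 1, read 8.23, 6.97, 8.45 and 8.53 in controls and 12.27, 13.13, 11.72 and 13.06 in cryolesioned animals, a rise of 4.17 ± 0.48 (SE, adjusted p = 0.0118). Haptoglobin (Hp), which binds free haemoglobin, rose by 1.47 ± 0.18 (SE, adjusted p = 0.0132) and ceruloplasmin (Cp), a ferroxidase, by 1.38 ± 0.18 (SE, adjusted p = 0.0158). Slc40a1, the iron exporter ferroportin, read 8.45, 8.83, 8.58 and 8.53 in controls against 7.48, 7.44, 7.64 and 7.57 after cryolesion and fell (-1.02 ± 0.17 SE, adjusted p = 0.031). The ferritin chains Fth1 and Ftl1 were not called (-0.20 and 0.21). Lcn2, described above, was the remaining rise. Largest adjusted p values without 1 array, each without cryolesioned animal 4, were 0.0818 for Hmox1, 0.089 for Hp, 0.085 for Cp and 0.117 for Slc40a1.

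**Figure D2:**
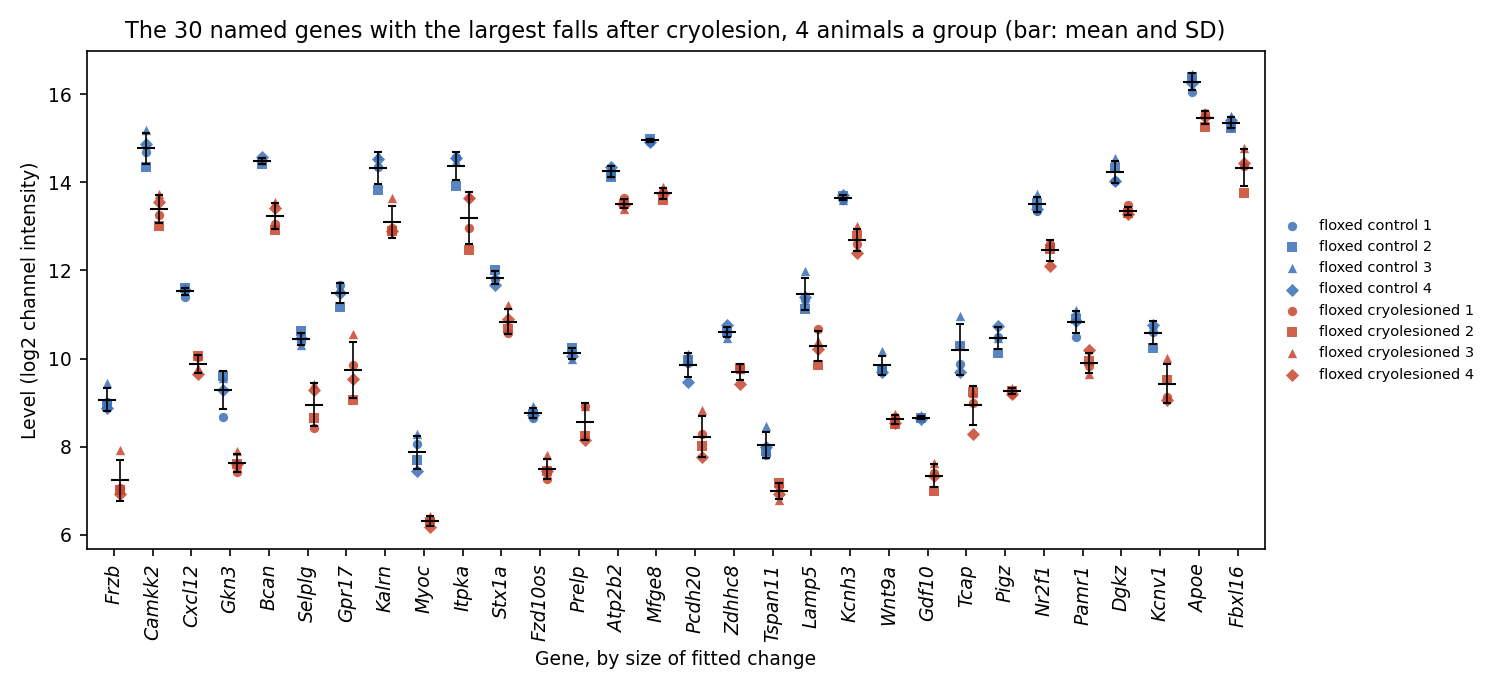
Levels of the 30 named genes with the largest falls whose groups did not overlap, on the same scale and with the same symbols as for the rises (bar, mean; whiskers, 1 SD). The red points lie below the blue points of the same gene, by less than the corresponding distance for the largest rises.

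Among the falls, genes of the dendritic spine had the largest share of calls. Of 25 calcium-calmodulin kinase and spine signalling genes 0 rose and 9 fell, with a median of -0.78 (range -0.90 to -0.57) and 24 negative changes. Camkk2, the kinase upstream of Camk4 and AMPK, read 14.68, 14.36, 15.19 and 14.88 in controls and 13.26, 13.01, 13.74 and 13.54 in cryolesioned animals, a change of -1.68 ± 0.20 (SE, adjusted p = 0.0125). Kalrn, a guanine nucleotide exchange factor of spines, read 14.34, 13.83, 14.63 and 14.52 in controls against 12.96, 12.90, 13.65 and 12.91 after cryolesion and fell (-1.42 ± 0.23 SE, adjusted p = 0.0271). Itpka, an actin-bundling inositol kinase of spines, read 14.57, 13.91, 14.49 and 14.55 in controls against 12.96, 12.47, 13.71 and 13.64 after cryolesion and fell (-1.37 ± 0.13 SE, adjusted p = 0.00687). Camkv and Camk4 fell too (-1.06 ± 0.16 SE, adjusted p = 0.0249 and -1.01 ± 0.17 SE, adjusted p = 0.0327), as did Camk2a, Ppp3r1 and Ppp1r9b among others. Members not called included Ppp3ca (-0.85), Prkcb (-0.81) and Hpca (-0.55). Camkk2 and Itpka lost their calls without control 1 or cryolesioned animal 4 (up to 0.0739 and 0.0586), Kalrn in 4 of the 8 fits (an adjusted p of 0.113 without the array of control 1), and Camkv and Camk4 reached 0.136 and 0.159 without cryolesioned animal 4.

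Synaptic and channel genes had negative medians and few calls in number. Over all features 1.19% were called lower, a share that each of these lists exceeded. Of 23 postsynaptic scaffold genes 5 fell and 1 rose, with a median of -0.37 (range -0.52 to -0.30). Dlgap3 read 14.38, 14.97, 14.50 and 14.38 in controls and 13.999, 13.93, 13.91 and 14.09 after cryolesion and fell (-1.01 ± 0.09 SE, adjusted p = 0.00633). Dlgap1, Sipa1l1 and Begain fell (-1.07, -0.84 and -0.64, with adjusted p = 0.0165, 0.0122 and 0.0489), the levels of Begain overlapping between the groups. Arc, an activity-induced gene, was called higher (1.75 ± 0.20 SE, adjusted p = 0.0112), yet its levels of 12.92, 13.58, 12.34 and 11.26 in controls and 13.61, 13.94, 12.69 and 13.62 in cryolesioned animals overlap. Stx1a, the presynaptic syntaxin, read 11.80, 12.02, 11.87 and 11.66 in controls against 10.57, 10.67, 11.21 and 10.90 after cryolesion, a change of -1.36 ± 0.08 (SE, adjusted p = 0.00196) that held without any 1 array. Of 28 vesicle and release genes 2 fell and 26 had negative changes, with a median of -0.47 (range -0.74 to -0.27). Of 40 potassium channel genes 4 fell, 0 rose and 38 had negative changes, with a median of -0.50 (range -0.75 to -0.36). Kcnh3 read 13.61, 13.69, 13.60 and 13.71 in controls against 12.60, 12.79, 13.002 and 12.41 after cryolesion and fell (-1.22 ± 0.11 SE, adjusted p = 0.00573). Glutamate receptor genes gave 2 falls of 24 (median -0.56, range -0.61 to -0.36), GABA and glycine receptor genes 1 of 17 (median -0.53, range -0.68 to -0.29) and sodium and calcium channels 2 of 25 (median -0.42, range -0.65 to -0.28), each with 0 rises. Kcnh3 gave an adjusted p of 0.0532 without the array of control 1, Dlgap3 an adjusted p of 0.0559 without the array of cryolesioned animal 4, Dlgap1 an adjusted p of 0.0959 without the array of cryolesioned animal 4, Sipa1l1 an adjusted p of 0.089 without the array of cryolesioned animal 4, Begain an adjusted p of 0.212 without the array of cryolesioned animal 4 and Arc an adjusted p of 0.0694 without the array of control 1.

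Cortical transcription factors fell in 2 of 19 cases with a median of -0.38 (range -0.80 to -0.31). Lhx2 read 12.26, 12.42, 12.42 and 12.76 in controls and 11.20, 11.17, 11.73 and 11.20 after cryolesion and fell (-1.13 ± 0.16 SE, adjusted p = 0.019), and Tbr1, a factor of deep-layer projection neurons, fell (-0.89 ± 0.18 SE, adjusted p = 0.0488). Nr2f1, an area-patterning factor among the 30 largest falls, read 13.35, 13.52, 13.75 and 13.40 in controls against 12.60, 12.48, 12.63 and 12.11 after cryolesion (-1.19 ± 0.21 SE, adjusted p = 0.0342). Without single arrays the adjusted p rose to 0.094 for Lhx2 and 0.209 for Tbr1 (cryolesioned animal 4), and to 0.133 for Nr2f1 (control 1). Map2 was called lower among 17 pan-neuronal genes (-0.59 ± 0.11 SE, adjusted p = 0.0394), with an adjusted p of 0.174 without the array of cryolesioned animal 4. The median of these genes was -0.38 (range -0.74 to -0.11), with -0.16 under the sex covariate and -0.11 and -0.74 on the separate routes.

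Other named falls belong to secreted and glial genes. Frzb, a secreted Wnt antagonist, had the largest fall of the named genes. It read 9.002, 8.93, 9.44 and 8.88 in controls and 7.05, 7.01, 7.93 and 6.93 in cryolesioned animals (-1.87 ± 0.19 SE, adjusted p = 0.00731), animal 3 again standing nearest to the controls. The ligand Wnt9a read 9.79, 9.75, 10.17 and 9.70 in controls against 8.66, 8.51, 8.75 and 8.54 after cryolesion (-1.22 ± 0.10 SE, adjusted p = 0.0041) and held without any 1 array. Gpr17, a receptor of oligodendrocyte precursors about to differentiate, read 11.66, 11.16, 11.62 and 11.48 in controls against 9.86, 9.05, 10.56 and 9.53 after cryolesion (-1.45 ± 0.28 SE, adjusted p = 0.0461), while myelin genes gave 0 calls of 18. The growth factor Ptn fell from 13.51, 13.40, 13.77 and 13.60 to 12.37, 12.52, 12.89 and 12.71 (-1.07 ± 0.09 SE, adjusted p = 0.00424), and it was the only call among 28 neurotrophic and growth factor genes. Apoe, the lipid carrier made by astrocytes, read 16.05, 16.39, 16.47 and 16.25 in controls against 15.58, 15.26, 15.56 and 15.48 after cryolesion (-1.17 ± 0.10 SE, adjusted p = 0.00424). Mfge8, a bridge between dying cells and phagocytes, read 14.91, 14.99, 14.99 and 14.93 in controls against 13.78, 13.60, 13.89 and 13.74 after cryolesion (-1.28 ± 0.12 SE, adjusted p = 0.00631). Gkn3, an arterial endothelial gene, read 8.67, 9.61, 9.56 and 9.28 in controls against 7.41, 7.60, 7.90 and 7.61 after cryolesion (-1.54 ± 0.23 SE, adjusted p = 0.0235). Ptn and Apoe held without any 1 array. Frzb gave an adjusted p of 0.0628 without the array of cryolesioned animal 4, Mfge8 an adjusted p of 0.0559 without the array of cryolesioned animal 4, Gkn3 an adjusted p of 0.129 without the array of cryolesioned animal 4 and Gpr17 an adjusted p of 0.159 without the array of cryolesioned animal 4. Lipid genes were otherwise divided, with Plin2, the coat protein of lipid droplets, higher (1.76 ± 0.21 SE, adjusted p = 0.0125, an adjusted p of 0.0855 without the array of cryolesioned animal 4) and 0 calls among 21 cholesterol synthesis genes.

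**Figure D3:**
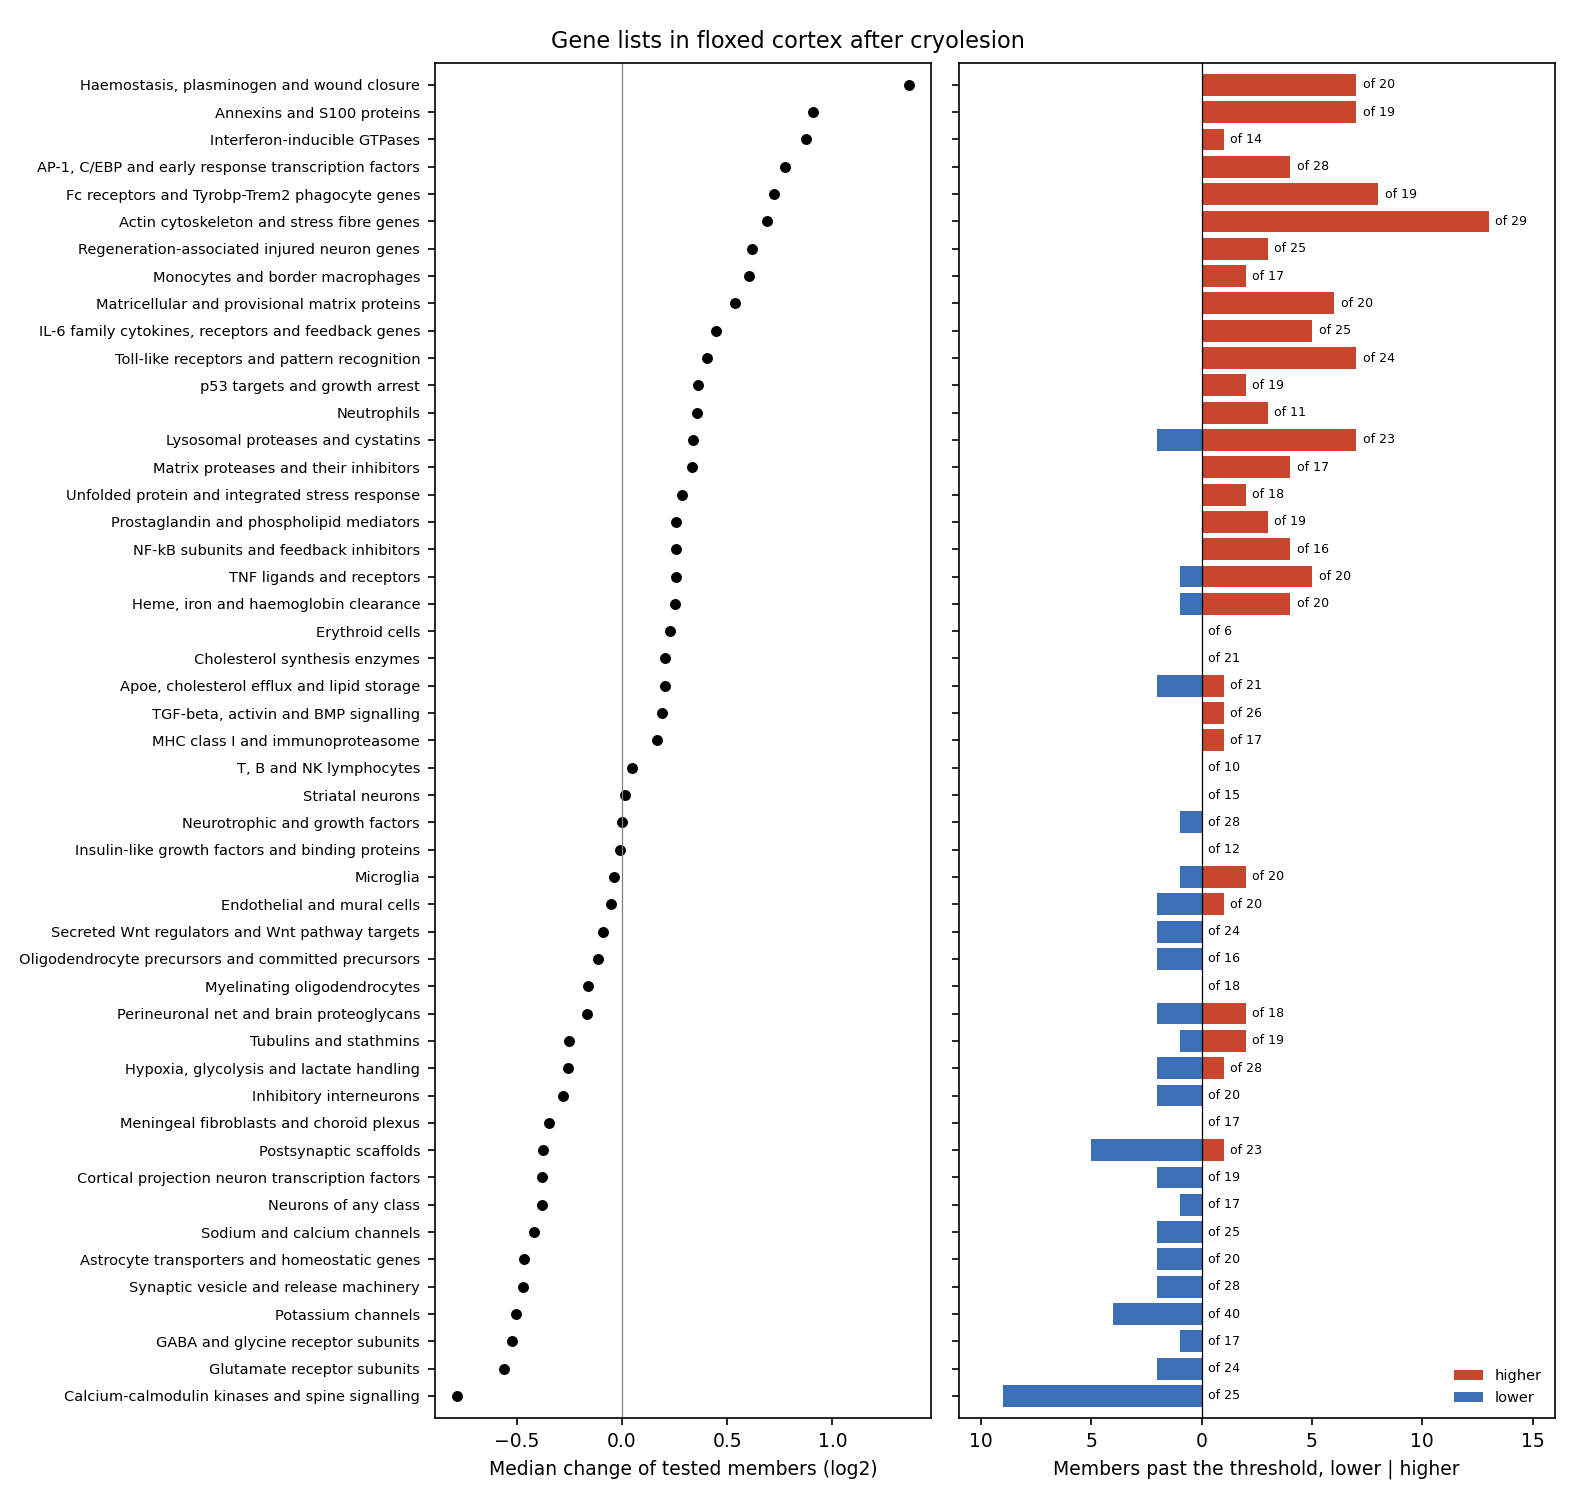
Median fitted change (left, log2) and number of members past the threshold (right, higher in red and lower in blue, with the number tested) for the 49 gene lists. Haemostasis genes have the highest median (1.36) and calcium-calmodulin kinase and spine genes the lowest (-0.78).

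Several stress and signalling lists had few calls in number. Over all features 1.86% were called higher and 1.19% lower. Lists with 2 or 3 rises among 18 to 25 genes lie above that share. Of 25 regeneration-associated genes 3 rose and 0 fell, which are Atf3, Sprr1a and Ecel1. The levels of Ecel1 overlapped between the groups, and its call (1.23 ± 0.22 SE, adjusted p = 0.0363) held in 1 of the 8 fits without 1 array (an adjusted p of 0.159 without the array of cryolesioned animal 4). Of 24 Wnt regulators and targets 0 rose and 2 fell, Frzb and the receptor Fzd10. Insulin-like growth factors and their binding proteins gave 0 calls of 12 (median -0.01, range -0.17 to 0.21). MHC class I and immunoproteasome genes gave 1 rise of 17, the proteasome subunit Psmb8 (1.23 ± 0.12 SE, adjusted p = 0.00731, an adjusted p of 0.0541 without the array of control 1). Interferon-inducible GTPases had a median of 0.87 (range 0.33 to 1.22) but 1 call of 14, Gbp3 (1.46 ± 0.29 SE, adjusted p = 0.0497, an adjusted p of 0.163 without the array of control 1). Stress-response genes gave 2 rises of 18, the endoplasmic reticulum proteins Sdf2l1 (1.09 ± 0.14 SE, adjusted p = 0.0158, an adjusted p of 0.0958 without the array of cryolesioned animal 4) and Manf (0.67 ± 0.11 SE, adjusted p = 0.0326, an adjusted p of 0.163 without the array of cryolesioned animal 4). Growth arrest genes gave 2 of 19, Gadd45g (1.58 ± 0.28 SE, adjusted p = 0.036, an adjusted p of 0.17 without the array of cryolesioned animal 4) and Gdf15 (1.40 ± 0.20 SE, adjusted p = 0.0214, an adjusted p of 0.112 without the array of cryolesioned animal 4). Lipid mediator genes gave 3 of 19, led by the phospholipase Pla2g4a (1.22 ± 0.13 SE, adjusted p = 0.00909, an adjusted p of 0.0711 without the array of cryolesioned animal 4). Glycolysis and hypoxia genes gave 1 rise, the vasodilator peptide Adm (1.65 ± 0.30 SE, adjusted p = 0.0381, an adjusted p of 0.164 without the array of cryolesioned animal 4), and falls of Aldoc and Ldhb among 28, with a median of -0.25 (range -0.51 to 0.05). The levels of Ldhb overlapped, and its call (-0.85 ± 0.15 SE, adjusted p = 0.0332) held in 1 of the 8 fits (an adjusted p of 0.159 without the array of cryolesioned animal 4).

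Markers of other cells moved as follows, and their part in the changes above was not tested. Neutrophil markers rose in 3 of 11 tested, with a mean level of 7.40 to 7.52 in controls and 8.09 to 8.54 after cryolesion. The granule protease Elane and the growth factor receptor Csf3r were not called (-0.05 and -0.08). A further 4 neutrophil markers and 7 lymphocyte markers with a probe did not pass the filter on background. Monocyte and border macrophage markers rose in 2 of 17 (Plac8 and Lyz2), at 7.46 to 7.64 and 8.06 to 8.53. Microglial markers gave 2 rises and 1 fall of 20 with a median of -0.04 (range -0.12 to 0.04) and mean levels of 10.34 to 10.61 and 10.23 to 10.38. Fcrls read 9.05, 9.44, 9.09 and 8.87 in controls and 10.71, 10.54, 10.07 and 10.17 after cryolesion (1.28 ± 0.09 SE, adjusted p = 0.00341), whereas Selplg read 10.38, 10.62, 10.30 and 10.46 in controls against 8.43, 8.65, 9.43 and 9.29 after cryolesion (-1.49 ± 0.26 SE, adjusted p = 0.0352, an adjusted p of 0.141 without the array of control 1). P2ry12, the purinergic receptor of resting microglia, was named after its values were seen and missed the threshold at -1.64 ± 0.36 (SE, adjusted p = 0.0651). Lymphocyte markers gave 0 calls of 10 (median 0.05, range 0.01 to 0.19), erythroid markers 0 of 6, and endothelial and mural markers 1 rise and 2 falls of 20. Oligodendrocyte precursor markers gave 2 falls of 16 and inhibitory interneuron markers 2 falls of 20. Choroid plexus and meningeal markers gave 0 calls of 17. Ttr, which the choroid plexus makes, read 13.999, 8.37, 12.90 and 9.73 in controls 1 to 4 and 8.69, 9.81, 7.06 and 9.25 in cryolesioned animals, a spread within the controls of over 5.

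The lesioned animals differed among themselves in a common direction. Of the 546 genes called higher, cryolesioned animal 3 was the lowest of its group in 363 and the highest in 23, and of the 350 called lower it was the highest in 214. Among the 30 largest rises it was the lowest in 25, with a median level 0.79 below the mean of its group, while animal 2 lay 0.59 above it. Over all features tested animal 3 was lowest in 8173 of 29362 and highest in 8315. Animals 2 and 3 were labelled with Cy3 and animals 1 and 4 with Cy5, and animal 3 had the lowest median channel intensity of the 8 floxed animals (45, against 49 to 50.5 in the other floxed Cy3 channels). Its share of probes well above background was also the lowest, at 59.9% against 60.4% to 64.9%, and the part of array quality in its levels was not tested. Striatal neuron markers, of which Foxp1 and Tac1 are also listed here for cortical neurons, differed between the same animals. Their mean level over 15 genes was 10.22, 9.24, 11.24 and 10.57 in cryolesioned animals 1 to 4, and 11.49, 10.98, 10.91 and 11.29 in controls 1 to 4. The adenosine receptor gene Adora2a, a marker of indirect-pathway striatal neurons named after its values were seen, read 9.14, 8.06, 10.49 and 9.43 in cryolesioned animals and 11.57, 11.03, 11.14 and 11.20 in controls. Animal 3, with the smallest rises, thus had the highest striatal level of the lesioned animals, and animal 2 the lowest. The mean striatal level of cryolesioned animals 1, 2 and 4 lay below that of all 4 controls, and for Adora2a all 4 lesioned animals did so. With 4 animals no correlation was computed. The part of tissue composition in the size of the rises, and in the falls, those of neuronal genes included, was not tested.

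**Figure D4:**
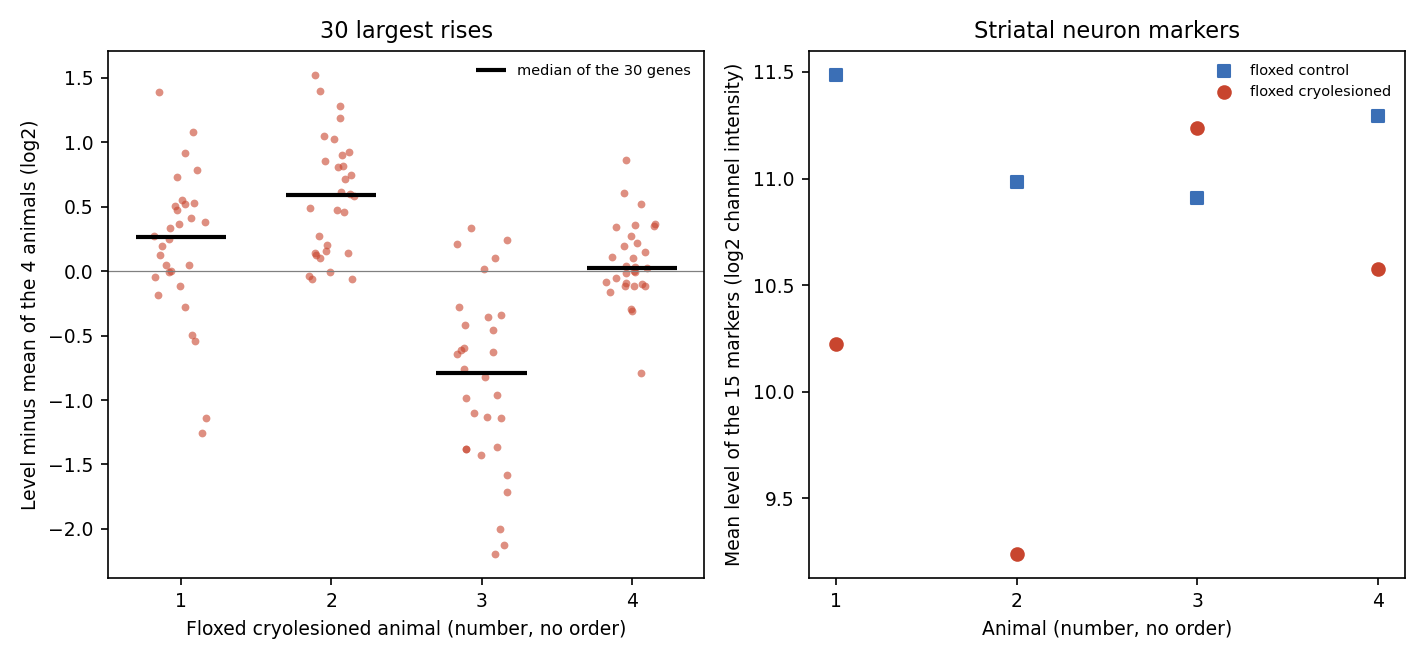
Left, deviation of each of the 30 largest rises from the mean of the 4 cryolesioned animals (log2, 1 point a gene, bar at the median). Right, mean log2 level of 15 striatal neuron markers in each floxed animal. Cryolesioned animal 3 is lowest on the left and highest of the lesioned animals on the right.

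The 2 routes through the loop, which share no floxed animal and no array, allowed the comparison to be set against itself. The first route (controls 1 and 2, cryolesioned 1 and 2) called 621 of 29362 features (2.11%) and the second (controls 3 and 4, cryolesioned 3 and 4) 1315 (4.48%), each with 1 residual degree of freedom. In all 225 were called on both, 36.2% of the first and 17.1% of the second, and 222 of these had the same direction. Of the features called on the first route 91.0% had the same sign on the second, and of those called on the second 84.1% had it on the first, against 60.9% over all features. Timp1 changed by 5.13 and 4.63, Ccl2 by 3.995 and 3.92, and Spp1 by 5.78 and 2.46. The calcium-calmodulin and spine list had medians of -0.57 and -0.90. Striatal markers were opposed, all 15 negative on the first route (median -1.47) and all 15 positive on the second (median 2.11). Each route also carries the difference between the deficient animals beside its controls and those beside its lesioned animals. On the second route the mean striatal levels were 11.24 and 10.57 in cryolesioned animals 3 and 4 and 10.91 and 11.29 in controls 3 and 4. These levels overlap, so the positive median is not a rise of the lesioned animals over their controls. The small median of the striatal markers in the joint fit (0.01) averages opposite values. Of the 3 features called in opposite directions, Ido1, itself in the striatal list, changed by -3.06 and 2.23 and Abhd11os by -1.93 and 2.25, and the other is an unnamed probe.

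**Figure D5:**
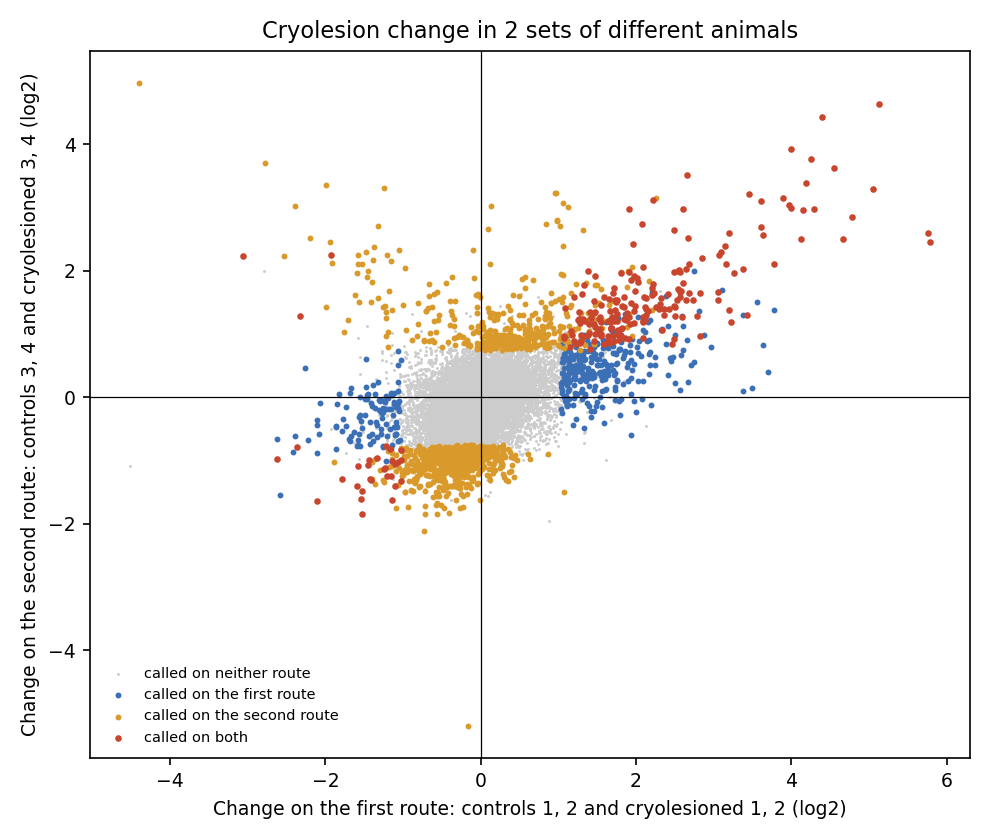
Log2 change of each tested feature on the first route (horizontal) and on the second (vertical), coloured by where it was called. The 222 features called on both routes with the same direction lie in the upper right and lower left, and the 3 called on both in opposite directions lie in the upper left.

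Some control levels differed between the arrays. Controls 3 and 4 were hybridised beside deficient cryolesioned animals and controls 1 and 2 beside deficient controls. Both of controls 3 and 4 lay above both of controls 1 and 2 in 12 of the 30 largest rises (40.0%), in 22.0% of the genes called higher and in 30.3% of those called lower, against 15.5% of all features. The median excess of controls 3 and 4 was 0.27 in the largest rises, 0.04 in the genes called higher, 0.09 in those called lower and 0.01 over all features. For Ccl2 the control levels were 6.31 and 6.19 against 7.49 and 7.29, and for Lcn2 6.97 and 6.59 against 8.22 and 8.15. For Timp1 they were 7.21 and 7.12 against 7.26 and 7.60. Whether signal from the neighbouring channel entered these levels was not tested. The fit uses ratios within an array, and its change for Lcn2 (2.57) was smaller than the difference of the group means (4.71).

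No difference between genotypes was called. The difference between the cryolesion change of floxed and of Il6-deficient cortex, tested as an interaction in the same limma fit, was called for 0 of 29362 features, with 972 at an unadjusted p under 0.05 and a smallest adjusted p of 1.00. No change above was shown to be particular to floxed mice, and a p that misses the threshold does not show that the genotypes respond alike.

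Promoter motifs were counted in the 300-base windows from 250 bases before to 50 after each start, on both strands. Windows were matched for 354 of 445 named genes called higher, 228 of 291 called lower and 13301 of 16852 named genes tested. The STAT motif TTCNNNGAA stood in 11.5% of the windows of genes called higher, 5.16% of those called lower, 7.15% of tested genes and 8.30% of all windows. The NF-kB motif (GGGA, any 2 bases, TTCC) stood in 3.16%, 0.968%, 1.42% and 1.47% of them, and the AP-1 motif TGANTCA in 9.03%, 2.90%, 5.71% and 7.81%. The C/EBP motif TTGCNNAA stood in 11.3%, 8.71%, 8.94% and 10.8%. The interferon response motif (TTTC, any 2 bases, TTTC) stood in 6.32%, 4.19%, 3.11% and 3.44%, and the cAMP response motif TGACGTCA in 2.03%, 2.58%, 2.76% and 1.79%. Of the 30 largest rises 22 had a window, and in the 250 bases upstream 10 of them held at least 1 STAT, NF-kB, AP-1 or C/EBP motif. The shares are descriptions of letters in these windows.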

How the data were processed

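Total RNA of 16 cortices was hybridised on 8 two-colour arrays, of which all 8 entered the fit. Per the file headers and the submitters' processing notes, scanning used Agilent Feature Extraction 10.7.3.1. The authors deposited median spot and background intensities without normalization, the scanner's background-subtracted and dye-normalized processed intensities, its log10 ratio of red over green, and a table of log2 ratios. The log10 ratio served only to settle scale and direction of the deposited log2 table, whose columns correlated at 0.966 to 0.977 with the ratios used here and had medians of -0.0182 to 0.0160.

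Median intensities were corrected with normexp (offset 50) and normalized by loess. Control and outlier spots were left out, 115 to 194 of the latter per array. Of 56605 probes, 32994 were named by accession through RefSeq (GRCm38.p6, names only), and 37352 were kept, being well above background in at least 4 of 16 channels. The brightest probe stood for a gene. Of 6259 genes with several probes 0 had opposite calls, which only genes with at least 2 called probes could show. The linear model was that of limma (version 3.58.1, R 4.3.3) with its moderated test (4 residual and 2.95 prior degrees of freedom), and the scripts were tested on simulated data. Levels came from Aquantile normalization.

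The animals are labelled as replicates. SE and p-values of the fit come from the residual scatter of within-array ratios between a floxed and a deficient animal. They do not measure the spread of levels among the 4 floxed animals of a group. For Ccl2 that spread was an SD of 0.67 in controls and 0.45 in cryolesioned animals, while the fitted SE was 0.12. Genes were named by rule: the 30 largest rises and 30 largest falls among named genes that were called without overlap, the 10 largest bounds of genes absent in controls, up to 5 called and 3 uncalled members of each of 49 lists, and Il6. Members and lists were chosen with earlier results of these data known. Other genes named are Ccl3, Ccl6, Ccl9, Wfdc17, Fcgr3, Camk2a, P2ry12 and Adora2a and members named without a value, chosen after their values were seen. Some genes that the rule names are not reported here.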

Additional observations from a re-analysis of the deposited data

Results flagged for a closer look

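Among the genes whose single levels were examined, 134 groups of 4 animals (67 genes in 2 groups) were searched for a sample far from the others, and 7 had a gap to the nearest sample above Dixon's 95% critical share of the group's range. Chance gives about 1 in 20 such groups. Cryolesioned animal 3 stood apart in 4 of them. It was the lowest for Cebpd at 12.84 (others 13.30 to 13.32) and the highest for Frzb at 7.93 (others 6.93 to 7.05), Lhx2 at 11.73 (others 11.17 to 11.20) and Kalrn at 13.65 (others 12.90 to 12.96). Cryolesioned animal 1 was the lowest for Cxcl1 at 8.04 (others 8.67 to 8.75). Control 3 was the highest for Anxa2 at 10.19 (others 9.89 to 9.90), and control 2 the lowest for Itpka at 13.91 (others 14.49 to 14.57).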

How the results depend on the processing

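The 896 calls became 358 with median centring in place of loess, 405 with processed signals, 337 with the replicate number as a block and 4766 in a fit of the separate channels (intraspot correlation 0.213). Leaving out 1 array gave 57 to 2140. Offset 16, the authors' log2 table, no filter, a filter of 8 channels, the mean of a gene's probes, an intensity trend, the sex covariate, removal of X and Y genes and either route gave 621 to 1315 calls. Same-numbered animals correlated at 0.197, 0.114, -0.244 and 0.006, so numbers did not pair the animals, and 2 of 4 correlated best with their own number. The named genes that were called kept their direction under these settings where they were tested. The Il6 difference of 0.58 was 0.21 with the dimmer probe and 1.09 with offset 16, and 0.47 to 0.68 without 1 animal. With 3 controls the exact p was 0.0571, and in all other settings 0.0286. Signal near background limits Il6 and the genes absent in controls.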

Other observations

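Some genes called higher lay next to each other. Ordered along the chromosomes among the 16852 named genes tested, 51 of the 445 raised genes stood in 21 runs of adjacent raised genes, and 5 runs held 3 or more. A run of 5 held the chemokine genes Ccl9, Ccl6, Ccl3 and Ccl4 followed by Wfdc17. Their changes were 2.29, 2.13, 2.299, 3.82 and 1.24 (adjusted p = 0.0294, 0.018, 0.0173, 0.00716 and 0.0306). Without single arrays the largest adjusted p was 0.129, 0.094, 0.0931, 0.0533 and 0.127 in the same order, and with sex as a covariate Wfdc17 was not called (adjusted p = 0.0566). A run of 4 held S100a4, S100a6, S100a8 and S100a9, the calcium-binding genes described above, and another Phf11a, Phf11b, Phf11d and Phf11c. Runs of 3 held the IgG receptor genes Fcgr2b, Fcgr4 and Fcgr3 and the membrane genes Ms4a6c, Ms4a6b and Ms4a6d. Ccl2 and Ccl7, Il1r2 and Il1r1, and Lyz2 and Lyz1 formed pairs. These runs, apart from Wfdc17 beside the chemokines, are families of similar sequence, and whether probes of 1 member bind RNA of another was not tested. Other pairs are neighbours of different families, such as Dab2 and Fyb, Rac2 and Cyth4, Fas and Ch25h, Adm and Ampd3, and Hmox1 and Mcm5. No number of adjacent genes to set beside the 51 was computed.

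The unnamed probe A_30_P01023652, chosen after its values were seen, read 11.35, 6.66, 11.24 and 11.41 in controls 1 to 4 and 5.93, 5.95, 5.92 and 6.01 in cryolesioned animals 1 to 4. It was high in the 3 floxed animals in which Xist was detected, and the part of sex in this pattern was not tested.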
